A study of Mus musculus with 8 samples.

Results

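Tryptophan, tyrosine and phenylalanine are broken down mainly in hepatocytes. Here the RNA of 9 enzymes of these routes, Tdo2, Afmid, Kmo, Kynu, Haao, Tat, Hpd, Hgd and Fah, was followed in mouse liver after extended hepatectomy, an operation that leaves a small remnant of liver to grow back. The genes were chosen by name, and each matched 1 of the 47719 rows of the deposited table. All 9 passed the filter on low values (at least 1 FPKM in at least 2 libraries), which left 12340 genes to test. FPKM is fragments scaled to the length of the transcript and to the mapped total of the library, so levels of different genes can be set side by side. The 8 libraries came from liver of wild type C57BL/6 mice, with 2 libraries at day 14 after hepatectomy, 4 at day 2 and 2 from unoperated normal control mice aged 10 weeks. The age of the operated mice is not given in the labels.

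The study tests capsules of human proliferating hepatocyte organoids as a treatment of liver failure. Its design text places eLO treatment at day 14 and both eLO and an EMC-treated control at day 2, but no label says which day 2 library had which. Surgery, time and treatment therefore cannot be told apart here. Day 2 replicate 1 is titled as day 1 although it is labelled post hepatectomy day 2, and the title of replicate 3 carries an unexplained TVR. Whether each library is a separate mouse is not stated in the labels, so the p-values cover the spread among libraries, which may be technical.

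In the main tryptophan route Tdo2 opens the ring of tryptophan, Afmid releases kynurenine, Kmo adds a hydroxyl group to it, Kynu splits it, and Haao opens the ring of the product on the way to quinolinate and NAD. In the tyrosine route, which phenylalanine also enters, Tat removes the amino group, Hpd forms homogentisate, Hgd opens its ring, Gstz1 turns the product into its isomer and Fah makes the last cut, which gives fumarate and acetoacetate. Tat and Tdo2 are textbook examples of liver genes induced by glucocorticoids. Loss of Fah causes hereditary tyrosinaemia type I in humans.

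In GENCODE release M21 on GRCm38, Tdo2 (ENSMUSG00000028011) lies on chromosome 3 at 81957090 to 81976202 on the minus strand. Afmid (ENSMUSG00000017718) lies on chromosome 11 at 117825924 to 117839908 on the plus strand. Kmo (ENSMUSG00000039783) lies on chromosome 1 at 175620381 to 175662116 on the plus strand. Kynu (ENSMUSG00000026866) lies on chromosome 2 at 43555329 to 43682715 on the plus strand. Haao (ENSMUSG00000000673) lies on chromosome 17 at 83831156 to 83847963 on the minus strand. Tat (ENSMUSG00000001670) lies on chromosome 8 at 109990437 to 109999803 on the plus strand. Hpd (ENSMUSG00000029445) lies on chromosome 5 at 123171807 to 123182727 on the minus strand. Hgd (ENSMUSG00000022821) lies on chromosome 16 at 37580153 to 37632020 on the plus strand. Fah (ENSMUSG00000030630) lies on chromosome 7 at 84585159 to 84606722 on the minus strand. The genes thus sit on 9 different chromosomes. Each value is for the whole gene, over all its exons.

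The tyrosine genes Tat, Hgd and Fah stand at the start, the middle and the end of 1 route, and the 250 bases before their transcription starts are shown for that reason. They are the RefSeq windows on GRCm38.p6, read 5′ to 3′ on the strand of the gene. Tat is at chr8:109990186-109990435, Hgd at chr16:37579903-37580152 and Fah, on the minus strand, at chr7:84605943-84606192. The Fah window lies before the RefSeq start but inside the longer GENCODE span of the gene. Capitals mark every match, on either strand, to the letters GGGCGG, named a GC box. They also mark matches to TATAAA, named a TATA box. The other motif marked, the box named after its letters, is CCAAT.
Tat: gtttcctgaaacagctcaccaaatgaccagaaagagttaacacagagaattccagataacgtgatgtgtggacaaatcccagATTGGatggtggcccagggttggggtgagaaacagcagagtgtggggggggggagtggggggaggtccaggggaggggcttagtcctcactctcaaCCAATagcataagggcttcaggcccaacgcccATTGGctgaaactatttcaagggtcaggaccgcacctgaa
Hgd: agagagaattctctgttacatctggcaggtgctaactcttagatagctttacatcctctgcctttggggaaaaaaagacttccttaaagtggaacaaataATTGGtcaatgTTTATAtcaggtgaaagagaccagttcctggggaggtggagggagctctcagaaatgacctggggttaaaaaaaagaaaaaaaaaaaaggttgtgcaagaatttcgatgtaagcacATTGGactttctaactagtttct
Fah: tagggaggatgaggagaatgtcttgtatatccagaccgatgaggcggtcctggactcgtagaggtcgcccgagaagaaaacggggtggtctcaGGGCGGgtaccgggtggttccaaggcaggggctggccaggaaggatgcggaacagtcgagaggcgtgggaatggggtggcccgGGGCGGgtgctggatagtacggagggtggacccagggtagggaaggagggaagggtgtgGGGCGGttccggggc
The Tat window held 3 CCAAT matches, the Hgd window 2 CCAAT matches and 1 TATA match, and the Fah window 3 GC boxes and neither of the others. No matches overlapped. Of all 32851 RefSeq windows of this length, 33.8% held a CCAAT match, 12.4% a TATA match and 32.7% a GC box. These matches describe the letters and are not shown to be bound. RefSeq windows were found for 8 of the 9 genes, all but Kynu.

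The series gave no read counts, and absolute depth is unknown. A relative depth was read from the modal ratio of values under 0.1 FPKM in pairs of libraries. This depth scale was 0.634 to 1.13 relative to control replicate 1, lowest in day 14 replicate 1. The sum of 10 hepatocyte markers ranged from 98269 to 107945 FPKM at day 14, from 57767 to 96837 at day 2 and from 71506 to 74374 in control, so every library read as liver. The FPKM of all genes summed to 1298005 and 1050576 at day 14, 686332 to 1133922 at day 2 and 717258 and 731451 in control. Marker sums are thus not parts of a fixed total. In bulk tissue fewer cells of a type and less RNA per cell cannot be told apart. The day 2 libraries were uneven. The sum of 7 proliferation markers, all 7 in the table, was 10.7 and 11.6 FPKM at day 14. In day 2 replicates 1 to 4 it was 7.19, 2.96, 452 and 672 FPKM, against 10.3 and 11 FPKM in the controls. The sum of 8 neutrophil markers, all 8 in the table, was 15.8 and 68.4 FPKM at day 14, 143, 329, 88.5 and 32.2 at day 2 and 4.41 and 8.04 in control, while the neutrophil gene Ly6g reached at most 0.736 FPKM in any library. The sum of 7 endothelial markers ranged from 23.1 to 42.9 FPKM at day 14, from 21.8 to 73.3 at day 2 and from 83.5 to 90.5 in control. The sum of 6 erythroid markers ranged from 1180.5 to 2579.4 FPKM at day 14, from 350 to 1550 at day 2 and from 340 to 415 in control. Stellate cell markers summed to 35 to 55.1 FPKM at day 14, 64.5 to 185 at day 2 and 71.9 to 72.5 in control. In the same order macrophage and monocyte markers summed to 67.4 to 69.5, 144 to 194 and 122 to 150 FPKM. Genes of that list moved unequally, with Marco averaging 50.1 FPKM at day 2 against 2.1 in control and Adgre1 0.848 against 3.25. Cholangiocyte markers summed to 105 to 122, 46.8 to 126 and 61.3 to 75.3 FPKM. Lymphocyte markers summed to 4.78 to 5.29, 0.24 to 1.4 and 2.26 to 2.75 FPKM. The part of any of these in the results was not tested.

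Day 2 livers were set against normal control to see how the early remnant differed from intact liver. Of the 9 enzymes, the tryptophan genes Kynu, Afmid and Tdo2 fell and none rose at an adjusted p under 0.05 (limma on log2(FPKM + 1), Benjamini-Hochberg over all genes tested). Of all genes tested, 11.5% were called lower and 9.72% higher. In 7 of the 9 all 4 day 2 libraries lay below both controls, the exceptions being Kmo and Tat, where 25.4% of all genes tested were separated in that way. None lay above the controls in all 4, where 26.1% of all genes tested did. The median log2 change of the 9 was -1.57, and that of all genes tested was 0.054. With either control library left out, no enzyme passed, although the changes of Kynu, Afmid and Tdo2 stayed between -3.27 and -1.57. With no filter on low values Kynu alone passed. Without day 2 replicate 1, the library titled day 1, Kynu (-2.45) and Hpd (-1.27) passed.

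**Figure D1:**
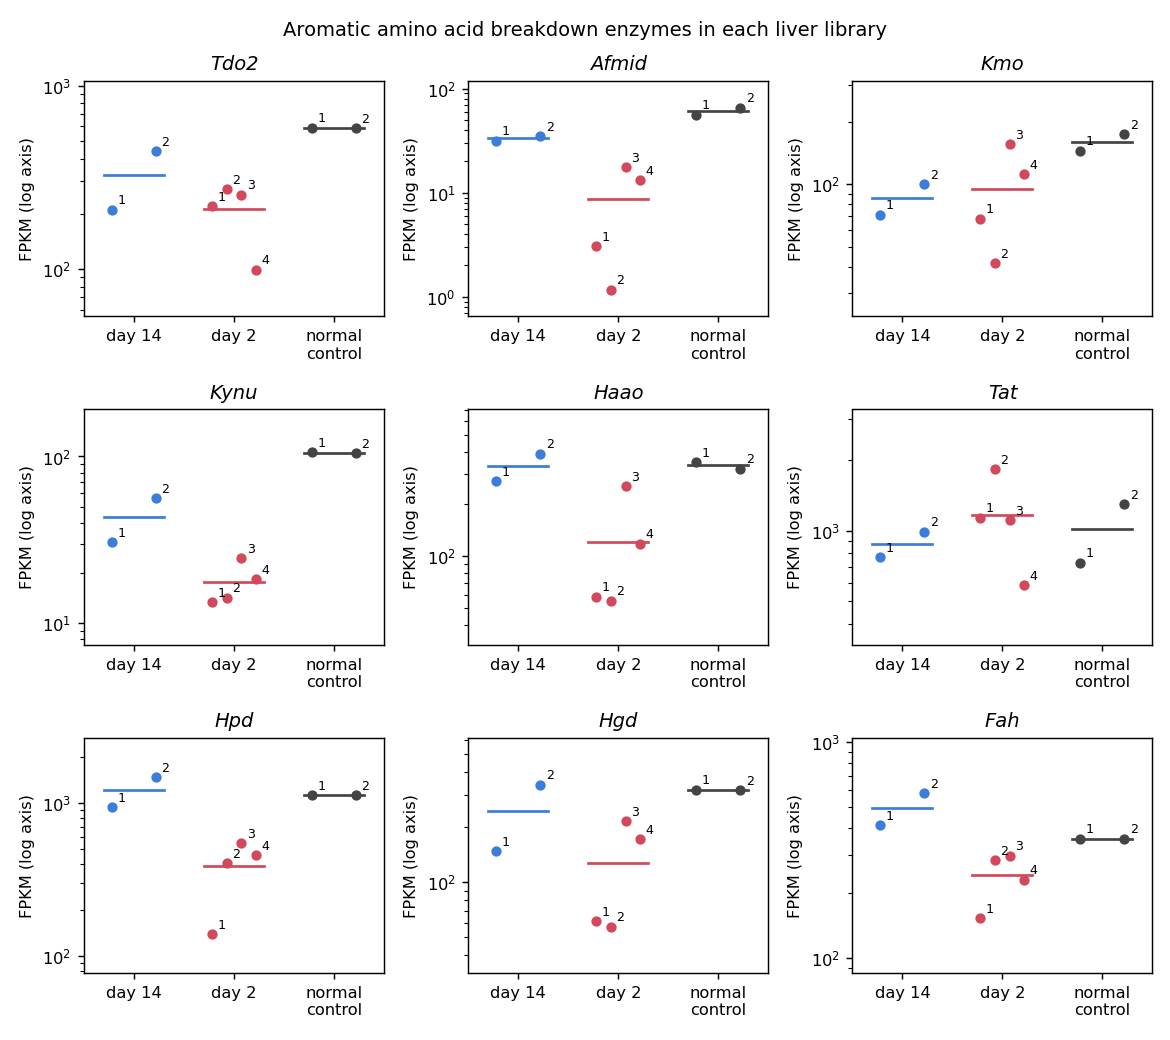
FPKM of the 9 enzyme genes (log axes) in 2 libraries at day 14, 4 at day 2 and 2 of normal control, with points numbered by replicate and lines at group means. At day 2 Kynu lies between 13.3 and 24.4 FPKM, against 104 and 106 in control, while the Tat libraries of the groups overlap.

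Kynu, kynureninase, showed the most even fall. It stood at 13.3, 14.2, 24.4 and 18.3 FPKM in day 2 replicates 1 to 4, against 106 and 104 FPKM in the controls. Every day 2 library was far below both controls and the groups did not overlap. Kynu averaged 17.6 ± 5.08 FPKM at day 2 (SD, n = 4) and 105 ± 1.37 FPKM in control (SD, n = 2). The log2 change was -2.56 ± 0.32 (SE), about 0.17 of the control level (limma adjusted p = 0.0034). Its SD between the day 2 libraries was 0.38 on the log2 scale, close to the median of 0.36 over all genes tested.

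Afmid, the formamidase, fell furthest and was the most uneven. It stood at 3.07, 1.17, 17.6 and 13.1 FPKM in day 2 replicates 1 to 4, against 56.4 and 65.8 FPKM in the controls. Replicates 1 and 2 were lowest, and all 4 were below both controls. The log2 change was -3.16 ± 0.79 (limma adjusted p = 0.0278). Its SD of 1.47 on the log2 scale between the day 2 libraries was larger than that of 97.8% of genes tested. Without day 2 replicate 1 the change was -2.90 and did not pass (limma adjusted p = 0.0605).

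Tdo2, the dioxygenase that commits tryptophan to breakdown, stood at 220, 273, 254 and 99.1 FPKM in day 2 replicates 1 to 4, against 588 and 587 FPKM in the controls. Replicate 4 was the lowest, unlike in Afmid, and the groups did not overlap. The log2 change was -1.57 ± 0.46, about 0.34 of the control level (limma adjusted p = 0.0456). This call was lost without day 2 replicate 1 (-1.62, limma adjusted p = 0.0776) and without replicate 4 (-1.24, limma adjusted p = 0.0524). Corrected for the dependence of each library on transcript length and GC, the change was -1.25 and not called (limma adjusted p = 0.119). The longest Tdo2 transcript has 3431 bases and 39.6% GC, against medians of 3263 bases and 49.7% over the protein-coding genes tested.

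Haao and Kmo did not pass. Haao, the dioxygenase before quinolinate, stood at 58.3, 55.3, 254 and 118 FPKM in day 2 replicates 1 to 4, against 350 and 320 FPKM in the controls. All 4 were below the controls, with replicate 3 close to them, and the log2 change was -1.74 ± 0.58 (limma adjusted p = 0.0659). Without day 2 replicate 3 it was -2.19 and called (limma adjusted p = 0.00995). Kmo, the monooxygenase of the mitochondrial outer membrane, stood at 68.2, 41.6, 156 and 112 FPKM at day 2, against 145 and 174 FPKM in the controls. Replicate 3 lay between the 2 controls, so the groups overlapped. The log2 change of Kmo was -0.91 ± 0.48 (limma adjusted p = 0.205). Kmo shares 5255 bases of its locus with Fh1 on the other strand, and the labels do not say that strand was kept. Fh1 stood between 151 and 248 FPKM at day 2, against 72.9 and 97.6 FPKM in control.

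Among the tyrosine genes none passed. Tat, the aminotransferase, was the most abundant of the 9 at day 2, at 1134, 1825, 1107 and 586 FPKM, against 729 and 1299 FPKM in the controls. The groups overlapped and the log2 change was 0.14 ± 0.46, with a 95% interval of -0.90 to 1.19 (limma adjusted p = 0.841). Its sign turned with quantile normalization (-0.066) and without control replicate 1 (-0.27) or day 2 replicate 2 (-0.11). Hpd, the dioxygenase after Tat, stood at 138, 406, 549 and 457 FPKM at day 2, against 1127 and 1127 FPKM in the controls. Every day 2 Hpd level was under the controls, and the log2 change of -1.71 ± 0.53 fell just short of the threshold (limma adjusted p = 0.0539). It passed under 6 of the 9 alternative settings that do not leave out a single library, at limma adjusted p of 0.0259 to 0.0498. Hpd lies wholly inside Psmd9, which is on the other strand and stood between 23.8 and 61.8 FPKM at day 2, against 15.2 and 14.4 FPKM in control.

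Hgd, which opens the ring of homogentisate, stood at 61.3, 57.2, 216 and 171 FPKM in day 2 replicates 1 to 4, against 320 and 317 FPKM in the controls. Replicates 1 and 2 were lowest and no day 2 library reached a control. The log2 change was -1.57 ± 0.61 (limma adjusted p = 0.0992), and -1.90 and called without day 2 replicate 3. Fah, the last enzyme, stood at 152, 284, 297 and 230 FPKM at day 2, against 356 and 357 FPKM in the controls. Fah was lower in all 4, but its log2 change of -0.61 ± 0.32 did not pass (limma adjusted p = 0.204).

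**Figure D2:**
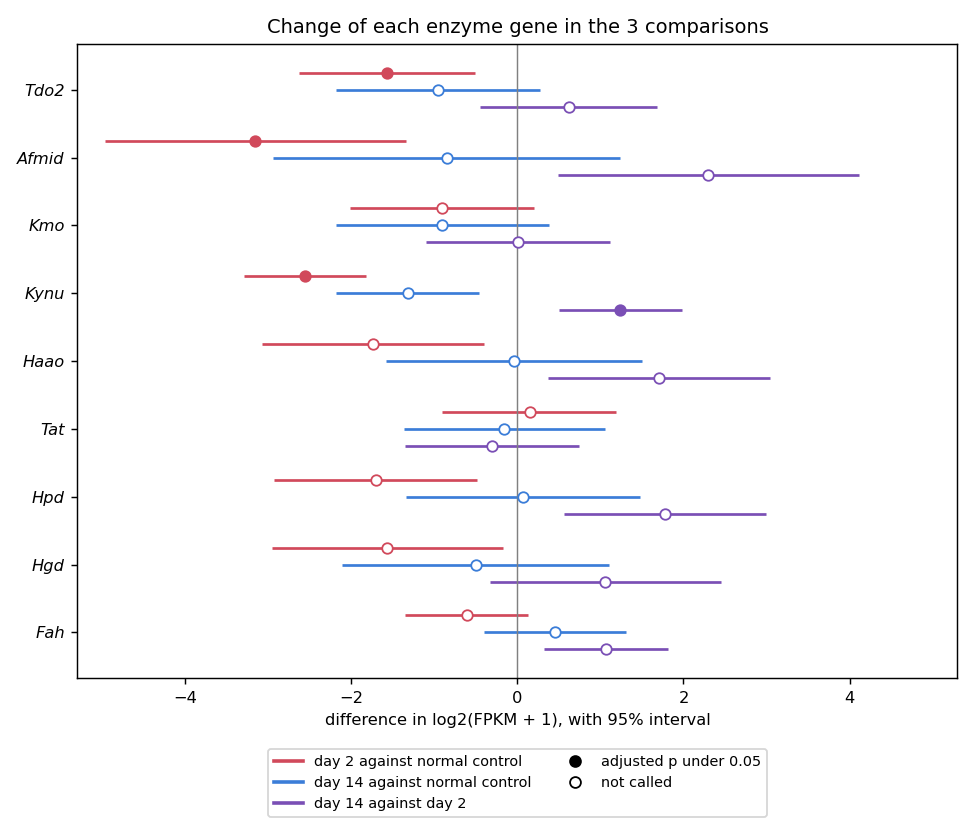
Difference in log2(FPKM + 1) of each enzyme gene (points) with its 95% interval (lines) in the 3 comparisons, filled where the adjusted p is under 0.05. The called changes are those of Kynu, Afmid and Tdo2 for day 2 against normal control and of Kynu for day 14 against day 2.

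The mean levels of the enzymes were ordered as follows. At day 2 Tat led at 1163 ± 509 FPKM (SD, n = 4), ahead of Hpd at 388 ± 176, Fah at 241 ± 65.8 and Tdo2 at 212 ± 78.1, with Kynu at 17.6 ± 5.08 and Afmid at 8.75 ± 7.91 at the foot. In control Hpd averaged 1127 ± 0.396 FPKM (SD, n = 2) and Tat 1014 ± 403, followed by Tdo2 at 587 ± 1.08 and Fah at 357 ± 0.82. Neighbours such as Fah and Tdo2 at day 2, or Hpd and Tat in control, did not differ beyond their spread, and single libraries departed from the order of the means. Ratios within a library do not depend on the scale between libraries, and the following were picked after the values had been seen and were not tested. The FPKM of Tat over that of Hpd was 8.20, 4.49, 2.01 and 1.28 in day 2 replicates 1 to 4, against 0.647 and 1.15 in the controls. The ratio of Hpd over Fah was 0.909, 1.43, 1.85 and 1.98 at day 2, against 3.16 in both controls. The ratio of Kmo over Kynu was 5.13, 2.93, 6.38 and 6.11 at day 2, against 1.36 and 1.67 in the controls. The ratio of Tdo2 over Kynu was 16.6, 19.2, 10.4 and 5.42 at day 2, against 5.53 and 5.62 in the controls. All but the last separated the groups, and in the last day 2 replicate 4 was at the control level.

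**Figure D3:**
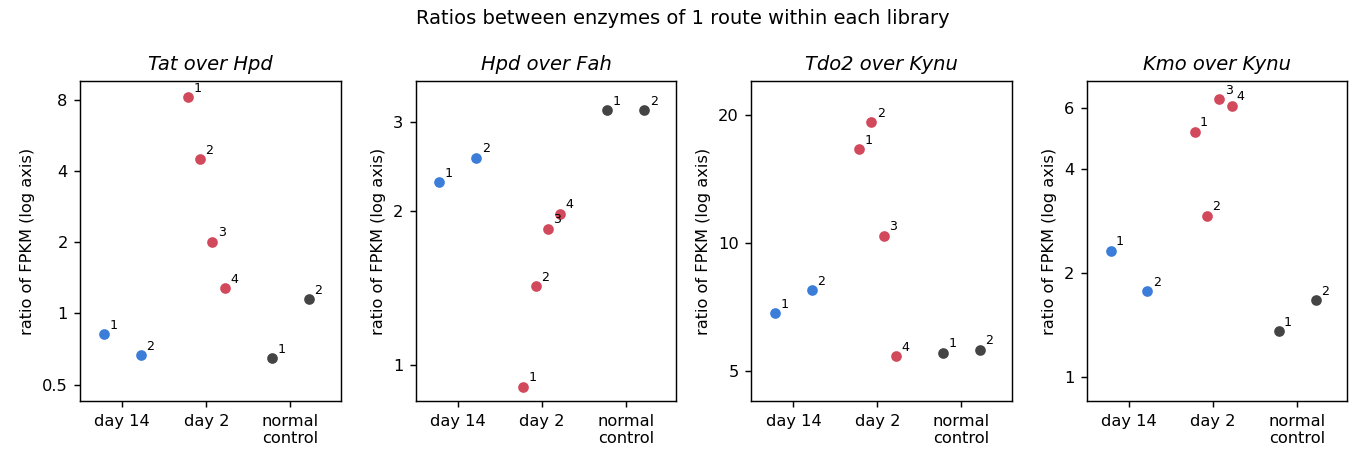
Ratios of FPKM between enzymes of the same route (log axes) in each library at day 14, at day 2 and in normal control, with points numbered by replicate. At day 2 Tat over Hpd runs from 1.28 to 8.20 and Hpd over Fah from 0.909 to 1.98, against 0.647 to 1.15 and 3.16 in control.

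Day 2 replicates 1 and 2 were both below replicates 3 and 4 for 6 of the 9 enzymes, Afmid, Kmo, Kynu, Haao, Hpd and Hgd. Among all genes tested 26.7% had that order. These are the libraries with 7.19 and 2.96 FPKM of summed proliferation markers, against 452 and 672 in replicates 3 and 4. Neutrophil markers summed to 143 and 329 FPKM in replicates 1 and 2, against 88.5 and 32.2 in replicates 3 and 4. Endothelial markers summed to 34.8 and 21.8 FPKM, against 42.2 and 73.3. Replicate 1 is also the library titled day 1, and the treatment of each is unknown. With 4 libraries these traits cannot be told apart, and none was tested. Tdo2, Tat and Fah did not follow that order of replicates, since replicate 4 was below replicate 2 for all of them. Gstz1, the isomerase before Fah, did not pass at day 2, at a log2 change of -0.40 ± 0.30.

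Afmid lies head to head with Tk1, thymidine kinase of the S phase of the cell cycle. The 2 genes are on opposite strands and share 169 bases at their 5′ ends. Tk1 stood at 2.06, 0.883, 51.4 and 43.5 FPKM in day 2 replicates 1 to 4, against 17.6 and 14.5 FPKM in the controls. Tk1 was thus under the controls in replicates 1 and 2 and above them in replicates 3 and 4, whereas Afmid was under them in all 4. The FPKM of Afmid over that of Tk1 was 1.49, 1.32, 0.343 and 0.302 at day 2, against 3.21 and 4.55 in the controls. This ratio was below the controls in every day 2 library, but it reuses the Afmid levels and is no separate support. In replicates 3 and 4 the ratio also carries the higher Tk1. At day 14 the ratio was 0.949 and 0.885, from Tk1 at 33.4 and 39.5 FPKM. Another gene model, Gm20708, spans both and shares 13981 bases with Afmid on its strand. It was listed at 30.5 and 44.9 FPKM at day 14, at 0.234, 4.77, 0 and 1.92 at day 2 and at 0.389 and 0 in control. Reads may have been divided between Afmid and Gm20708, so the level of Afmid is uncertain, above all at day 14. It is also uncertain in day 2 replicate 2, where Gm20708 at 4.77 FPKM was above Afmid at 1.17 FPKM. The fall and the spread of Afmid at day 2 share this limit.

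**Figure D4:**
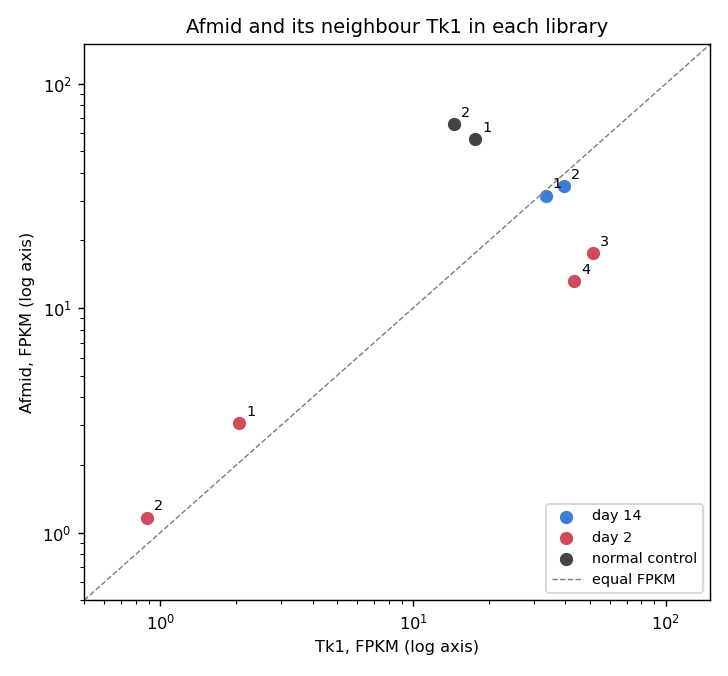
FPKM of Afmid against that of its neighbour Tk1 (both log axes) in each of the 8 libraries, coloured by group and numbered by replicate, with a line of equal FPKM. The controls lie above the line, day 2 replicates 3 and 4 below it with Tk1 at 51.4 and 43.5 FPKM, and day 2 replicates 1 and 2 at the lower left.

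The other genes of the routes moved unequally at day 2. Of 8 further tryptophan and kynurenine genes, 6 were tested, 3 fell and none rose, where 11.5% of all genes tested were called lower and 9.72% higher. Aadat, an aminotransferase that turns kynurenine into kynurenate, averaged 21 ± 7.30 FPKM at day 2 and 97.7 ± 4.43 FPKM in control, a log2 change of -2.22 ± 0.32 (limma adjusted p = 0.00536). Ido2, a relative of the dioxygenase of immune cells, averaged 5.73 ± 4.93 FPKM at day 2 and 41.4 ± 0.0776 FPKM in control (log2 change -3.06 ± 0.75), a call that was lost with a pseudocount of 0.1 FPKM and with no filter. Ddc, the decarboxylase of aromatic amino acids, averaged 13.7 ± 6.52 FPKM at day 2 and 57.3 ± 7.47 FPKM in control (log2 change -2.09 ± 0.39). Ido1, the dioxygenase of immune cells, and Tph1, which starts serotonin synthesis, were listed at 0 in all 8 libraries. Acmsd, which draws intermediates away from NAD, stood at 30.0, 4.14, 55.5 and 31.9 FPKM at day 2, against 9.51 and 12.1 FPKM in the controls, and did not pass at 0.99 ± 0.81.

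Of 9 NAD and nicotinamide genes 1 rose and none fell at day 2, with a median log2 change of -0.12. A count of 1 of 9 is near the 9.72% of all genes called higher. The riser was Nnmt, which methylates nicotinamide rather than making NAD, so no NAD synthesis gene of the list was called. Nnmt averaged 450 ± 121 FPKM at day 2 and 158 ± 37.7 FPKM in control (log2 change 1.48 ± 0.41). Its call was lost on removal of the length and GC trend (1.05), with no filter on low values and without day 2 replicate 1, 2 or 4. Qprt, which uses quinolinate, did not pass at -0.40 ± 0.38. Of 10 further phenylalanine and tyrosine genes, 9 were tested and none passed limma's test at day 2, with a median of -0.21. Of 5 tested transporter genes, the aromatic amino acid transporter Slc16a10 fell at a log2 change of -1.79 ± 0.34 and Slc3a2, the heavy chain of amino acid exchangers, rose at 0.97 ± 0.21. By comparison, 11.5% of all genes tested were called lower and 9.72% higher. The rise of Slc3a2 was not called relative to the hepatocyte markers (1.13).

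**Figure D5:**
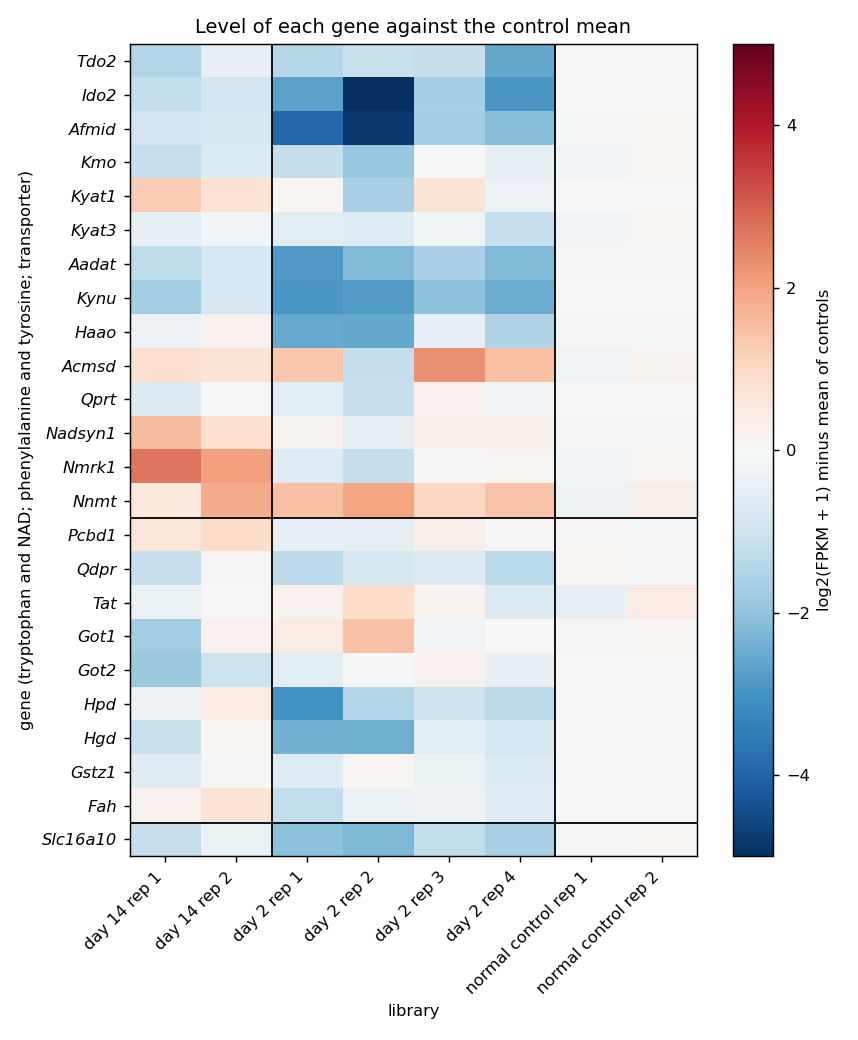
Level of 24 genes of the routes in each library, as log2(FPKM + 1) minus the mean of the 2 controls (colour), with black lines between groups and between the tryptophan and NAD genes, the phenylalanine and tyrosine genes and the transporter Slc16a10. Afmid is dark blue in day 2 replicates 1 and 2, at 3.07 and 1.17 FPKM, and Nmrk1 is red at day 14.

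Of 10 glucocorticoid responsive genes other than Tat and Tdo2, 4 fell and 1 rose at day 2, with a median log2 change of -0.58. Of all genes tested 11.5% were called lower and 9.72% higher, so the count that rose is near the background. The receptor itself, Nr3c1, averaged 4.93 ± 1.08 FPKM at day 2 and 16.7 ± 2.04 FPKM in control (log2 change -1.60 ± 0.23). Hsd11b1, which regenerates active glucocorticoid, changed by -1.96 ± 0.25, G6pc, which releases glucose, by -4.62 ± 0.81 and Tsc22d3 by -1.83 ± 0.45. Fkbp5, a chaperone partner of the receptor, rose to 33.4 ± 11.2 FPKM at day 2, against 4.60 ± 1.07 FPKM in control (log2 change 2.57 ± 0.33). Of 10 liver transcription factors 4 fell and none rose, among them Cebpa at -1.68 ± 0.34, against 11.5% and 9.72% of all genes tested. Of 5 tested genes of the aryl hydrocarbon receptor, which binds tryptophan metabolites, 1 rose, the quinone reductase Nqo1 at 2.16 ± 0.35, and none fell, against 9.72% and 11.5% of all genes tested. The median log2 change of the 5 was -0.44. The classic target Cyp1a1 stayed under the filter, and the receptor gene Ahr did not pass. Cyp1a2, an abundant target, averaged 144 ± 217 FPKM at day 2 and 372 ± 49.7 FPKM in control, with groups that overlapped. Neither Cyp1a2 at -3.41 ± 1.68 nor Tiparp, another target, at 1.02 ± 0.64 passed. Of 15 related genes called at day 2 and followed under the alternatives, all 15 lost their call without control replicate 1 and 14, all but Fkbp5, without control replicate 2. Relative to the hepatocyte markers 12 of them were called.

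Day 14 livers were set against normal control to see what still differed from intact liver at the later time. No enzyme was called in either direction by limma, where 4.58% of all genes tested were called lower and 5.21% higher. The fit shares 1 spread per gene over all 3 groups, so the uneven day 2 libraries enter these errors too. With only the 2 groups fitted 2664 genes were called instead of 1208, and of the enzymes Afmid alone passed. An absent call therefore does not show a return to the control level. In the fit of all 3 groups Kynu alone had an unadjusted p under 0.05, where 14.5% of all genes tested did downwards and 15.3% upwards. The day 14 libraries lay below both controls for Tdo2, Afmid, Kmo and Kynu and above both for Fah. Of all genes tested 35.7% were separated downwards and 35.3% upwards, so that 4 and 1 of 9 are near or under the background. The median log2 change of the 9 was -0.50, against -0.0021 for all genes.

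Kynu stood at 30.7 and 56.3 FPKM at day 14, against 106 and 104 FPKM in the controls. Both libraries were well under the controls and the log2 change was -1.32 ± 0.37 (limma adjusted p = 0.0608). It was called with quantile normalization (-1.39) and relative to the hepatocyte markers (-1.61). Tdo2 stood at 210 and 437 FPKM, against 588 and 587 FPKM in the controls (log2 change -0.95 ± 0.53). Afmid stood at 31.7 and 35.0 FPKM, against 56.4 and 65.8 FPKM in the controls (log2 change -0.85 ± 0.91). Both Afmid libraries were close to each other, and Afmid passed when only these 2 groups were fitted (limma adjusted p = 0.0431). The overlapping Gm20708 stood at 30.5 and 44.9 FPKM at day 14, against 0.389 and 0 FPKM in the controls. Reads of Afmid may have been listed under it, so a fall of Afmid at day 14 is uncertain. Kmo stood at 71.3 and 99.9 FPKM, against 145 and 174 FPKM in the controls (log2 change -0.91 ± 0.56). Haao stood at 271 and 391 FPKM, against 350 and 320 FPKM, and its log2 change was -0.040 ± 0.67.

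Of the tyrosine genes at day 14, Tat stood at 770 and 989 FPKM, against 729 and 1299 FPKM in the controls. Hpd stood at 942 and 1485 FPKM, against 1127 and 1127 FPKM in the controls. The day 14 libraries lay between the controls for Tat and on either side of them for Hpd, with log2 changes of -0.16 ± 0.53 for Tat and 0.069 ± 0.61 for Hpd. Hgd stood at 148 and 341 FPKM, against 320 and 317 FPKM in the controls (log2 change -0.50 ± 0.70). Fah stood at 413 and 581 FPKM, against 356 and 357 FPKM in the controls (log2 change 0.46 ± 0.37). All 9 enzymes were lower in day 14 replicate 1, the library with the smallest depth scale, than in replicate 2, as were 54.2% of all genes tested. The 95% intervals reached from -2.11 to 1.10 for Hgd and from -1.34 to 1.48 for Hpd. Changes of 2-fold in either direction were thus not excluded for these genes.

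Among the related genes at day 14, Nmrk1, which phosphorylates nicotinamide riboside, stood at 85.7 and 56.4 FPKM, against 11.3 and 14.2 FPKM in the controls (log2 change 2.36 ± 0.45, limma adjusted p = 0.0292). Of the 9 NAD and nicotinamide genes no other passed. Got2, the mitochondrial aspartate aminotransferase, stood at 69.1 and 119 FPKM, against 247 and 259 FPKM in the controls (log2 change -1.47 ± 0.36, limma adjusted p = 0.0439). Got2 was the 1 gene called among the 9 tested of the phenylalanine and tyrosine list. By comparison, 4.58% of all genes tested were called lower and 5.21% higher at day 14 against control. No further tryptophan or kynurenine gene, no transporter and no glucocorticoid responsive gene was called by limma, and Kyat1, a kynurenine aminotransferase, had a log2 change of 0.98 ± 0.65. Among the transcription factors Cebpb and Nr1i3 rose, at 2.26 ± 0.44 and 2.06 ± 0.41, and Nr5a2 fell at -1.36 ± 0.31. All 5 of these calls were lost without either control or without day 14 replicate 1, and those of Nmrk1, Cebpb and Nr1i3 also relative to the hepatocyte markers.

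Day 14 livers were set against day 2 livers to see how the late remnant differed from the early one, with the same libraries as above. Of the 9 enzymes 1 rose, Kynu, and none fell, where 9.09% of all genes tested were called higher and 7.03% lower. Both day 14 libraries lay above all 4 day 2 libraries for Afmid, Kynu, Haao, Hpd and Fah, and 21.2% of all genes tested were separated in that way. None lay below all of them, where 20.4% of all genes tested did. The median log2 change of the 9 was 1.07, against -0.029 for all genes.

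Kynu stood at 30.7 and 56.3 FPKM at day 14, against 13.3 to 24.4 FPKM at day 2, a log2 change of 1.24 ± 0.32 (limma adjusted p = 0.0379). This call rests on single libraries. It was lost without either day 14 library (1.67 and 0.81), either control, or day 2 replicate 1, 2 or 4, and relative to the hepatocyte markers (0.79). Hpd changed by 1.78 ± 0.53 and Fah by 1.07 ± 0.32, both just short of the threshold (limma adjusted p = 0.0553 and 0.057). Haao changed by 1.70 ± 0.58 and Afmid by 2.30 ± 0.79, and both passed without day 2 replicate 3 (2.15 and 2.78). Hgd changed by 1.06 ± 0.61 and Tdo2 by 0.62 ± 0.46, with groups that overlapped.

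Kmo and Tat showed the smallest differences. Kmo changed by 0.0069 ± 0.48, with a 95% interval of -1.10 to 1.12, and its sign turned under scaling by quantiles (-0.025). Tat changed by -0.30 ± 0.46. Of the related genes, Ddc and Aadat rose at 1.88 ± 0.39 and 1.14 ± 0.32, and Nmrk1 and Nadsyn1, an NAD synthetase, at 2.81 ± 0.39 and 1.13 ± 0.29. Got2 fell at -1.25 ± 0.31. Hsd11b1 averaged 373 ± 24.2 FPKM at day 14 and 93.0 ± 19.7 FPKM at day 2 (log2 change 2.01 ± 0.25, limma adjusted p = 0.00444), and Fkbp5 fell at -1.34 ± 0.33. Cebpa rose at 2.22 ± 0.34. All 14 related genes called and followed here lost their call without day 14 replicate 1, and 9 of them were called relative to the hepatocyte markers, where Aadat and Nadsyn1 were not.

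The genes with the most similar pattern were sought over the 8 libraries by the root mean square difference between centred log2(FPKM + 1) profiles, among 6895 named genes with a mean of at least 5 FPKM. The libraries share their groups, so likeness reflects the group means in large part. Kynu was closest to Acadsb at 0.145 log2 units, Hyal1 at 0.181 and Dpys at 0.196. Hgd was closest to Acsm1 at 0.163, Haao to Nit2 at 0.183, Fah to Tmem59 at 0.167 and Kmo to Gzf1 at 0.140. Tat was closest to Lpgat1 at 0.228, Afmid to Akr1c14 at 0.242, Tdo2 to Adipor2 at 0.294 and Hpd to Cyp2d40 at 0.360. No enzyme was among the 3 genes nearest to another. Among pairs of the 9, Haao and Hgd were most alike at 0.369, followed by Haao and Hpd at 0.495.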

How the data were processed

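RNA of mouse liver was extracted with Trizol and made into libraries with the Illumina TruSeq kit, per the labels' protocols. The authors deposited 1 table of FPKM per gene and library. The submitters' processing notes list GRCm38 and mm9 as builds and DESeq2, HTSeq, HISAT2 2.10 and Cufflinks 2.2.1 as tools, while the series' design text speaks of BWA, TopHat and Cufflinks. Which of them made the FPKM, and any scaling between libraries, is not given in the sources used here. FPKM was transformed to log2(FPKM + 1), which understates changes of low genes. A single limma model (version 3.58.1, R 4.3.3, trended prior, with 5 residual and 3.23 prior degrees of freedom) held the means of the 3 groups for all 12340 genes past the filter of 1 FPKM in 2 libraries. A gene was called in a comparison where its p, adjusted by Benjamini-Hochberg over these genes, was under 0.05. Values ± are SD for FPKM and SE for log2 changes. The settings varied were the pseudocount (0.1), the filter (none, or 5 FPKM), median-ratio and quantile scaling, scaling to 10 hepatocyte markers, only 2 groups fitted, no trend, removal of the length and GC trend (splines of 4 degrees of freedom) and leaving out each library. The fit was run on simulated data in which each gene had the same spread in all groups. That run does not cover groups of unequal spread, such as the uneven day 2 libraries here. The 9 genes, the related lists and the tests were chosen with earlier results of these data known. The named related genes were up to 4 called per list and comparison, or the most abundant where none was called, and Tk1 and Gstz1. Some related genes are not reported here. Nr3c1, Acmsd, Qprt, Ahr, Cyp1a1, Cyp1a2, Tiparp, Ido1, Tph1 and the overlapping genes were added after their values were seen. Kyat1 and Kyat3 were matched by identifier, since the table has older symbols. Plots used matplotlib 3.10.9 (Python 3.11.15).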

Additional observations from a re-analysis of the deposited data

Results flagged for a closer look

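The change against normal control differed between day 14 and day 2, by the test of day 14 against day 2 itself (limma adjusted p under 0.05), for 1 of the 9 enzymes, Kynu, at 1.24 log2 units. In that test 9.09% of all genes tested were called higher and 7.03% lower, so 1 of 9 is near the background. Among the related genes the same difference was 1.88 for Ddc, 1.14 for Aadat, 2.81 for Nmrk1, 1.13 for Nadsyn1 and -1.25 for Got2. Among glucocorticoid responsive genes it was 2.01 for Hsd11b1, 1.90 for Tsc22d3, 1.90 for Dusp1 and -1.34 for Fkbp5, and for Nqo1 it was -1.86. Among liver transcription factors it was 2.22 for Cebpa, 2.27 for Onecut1, 1.57 for Nr1i3 and 1.2 for Foxa2. The 4 day 2 libraries of 37 genes were examined for 1 library far from the others, which chance gives in about 1 of 20 groups. It was found for 1 gene, Nadsyn1, where day 2 replicate 2 stood at 5.62 FPKM.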

How the results depend on the processing

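For day 2 against normal control 2620 genes were called in all, 1415 relative to the hepatocyte markers (878 higher and 537 lower, against 1200 and 1420) and 1722 on removal of the length and GC trend. Leaving out 1 library gave 112 to 2837 genes. For day 14 against normal control the count was 1208, and 691 with no filter, 422 relative to the hepatocyte markers (63 higher and 359 lower, against 643 and 565), 2664 with only the 2 groups fitted and 526 after trend removal, with 1 to 2049 when 1 library was left out. For day 14 against day 2 it was 1990, and 982 with only the 2 groups fitted, with 48 to 2414 when 1 library was left out. Relative to the hepatocyte markers 315 were higher and 1825 lower, against 1122 and 868. That scaling moved the median of all genes to 0.22, -0.29 and -0.48 log2 units in the 3 comparisons. Before scaling, the 10 markers themselves had median log2 changes of -0.14, 0.35 and 0.48, so this scale is not a fixed reference.

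Of the 9 enzymes, 3 were called at day 2 against control, 1 with no filter and 5 with quantile normalization, and 0 to 6 when 1 library was left out. At day 14 against control 0 were called, and 1 each with quantile normalization, relative to the hepatocyte markers and with only the 2 groups fitted; leaving out 1 library gave 0 to 0. At day 14 against day 2 the count of 1 became 0 with no filter or only the 2 groups fitted, 2 with a filter of 5 FPKM, median-ratio scaling or no trend, and 3 with quantile normalization or trend removal, and 0 to 4 when 1 library was left out.

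Signs turned only for changes that had not passed. For day 2 against control, Tat was at -0.066 with quantile normalization. For day 14 against control, Hpd was at -0.18, -0.22 and -0.27 with quantile normalization, relative to the hepatocyte markers and after trend removal. For day 14 against day 2 in the same order, Kmo was at -0.025, -0.44 and -0.049, and Gstz1 at -0.054 and -0.38 in the first 2. With 1 library left out, at day 2 against control Tat ran from -0.27 to 0.56 and Tk1 from -1.42 to 0.18. At day 14 against control Haao ran from -0.30 to 0.22, Tat from -0.57 to 0.26, Hpd from -0.26 to 0.40 and Hgd from -1.10 to 0.096. At day 14 against day 2 Kmo ran from -0.32 to 0.30 and Gstz1 from -0.19 to 0.34. The cause was not tested. With 1 library left in a group, that library was assumed to vary like the others. No paired analysis was possible because the titles of the operated libraries share only 1 number, that of day 14 replicate 1 and day 2 replicate 1, whose meaning is not given, and the numbers of the controls do not tie them to operated libraries.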
